A study of Homo sapiens with 10 samples.

Results

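BAX and GDF15 are known target genes of the tumour suppressor p53, and each was represented by 1 probe set on the array, the set of oligonucleotides whose signals are combined into 1 value for a transcript. The members were chosen by name, as the probe sets that the platform's annotation pairs with BAX (probe set 16863922) or GDF15 (probe set 16859795), which gave 2 genes of the 14884 named on the array and of the 10797 tested. The choice was made with earlier results of these data known. Expression was measured on 10 Affymetrix arrays from 5 lines derived from HCT116, a widely used human colon cancer cell line. The lines were wild type (WT), the ORC1 mutants ORC1B14 and ORC1BP32, and the ORC2 mutants ORC2B2 and ORC2BP8, all untreated, with 2 arrays titled as biological replicates for each. The proteins encoded by ORC1 and ORC2 belong to the origin recognition complex, on which DNA replication is licensed. The labels state neither the kind of mutation nor how a line was derived, and they do not say whether the replicates were separate cultures, so each p-value is set against a spread between arrays that may be technical.

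p53 is a transcription factor that is stabilised by DNA damage and other stress and then raises genes for cell-cycle arrest, DNA repair and cell death. BAX is a pro-apoptotic member of the BCL2 family that forms pores in the outer mitochondrial membrane and so releases cytochrome c. GDF15 is a secreted, distant member of the TGF-beta superfamily that signals to the hindbrain through the receptor GFRAL and its partner RET, and it is widely used as a marker of cellular stress. Besides p53, GDF15 is known to be induced by ATF4 and CHOP, the transcription factors of the integrated stress response, and by EGR1.

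Both genes lie on chromosome 19, and their upstream sequences are shown because both are described as p53 targets while their values in the mutant lines lay on opposite sides of WT. The windows are the 250 bases before each gene's start in RefSeq (GRCh38.p14, plus strand), chr19:48954625-48954874 for BAX and chr19:18385908-18386157 for GDF15. Capitals mark E-boxes (CACGTG) and a GC box in the BAX window, and GC boxes (GGGCGG, or CCGCCC on the other strand) and a TATA box (TATAAA) in the GDF15 window.
BAX: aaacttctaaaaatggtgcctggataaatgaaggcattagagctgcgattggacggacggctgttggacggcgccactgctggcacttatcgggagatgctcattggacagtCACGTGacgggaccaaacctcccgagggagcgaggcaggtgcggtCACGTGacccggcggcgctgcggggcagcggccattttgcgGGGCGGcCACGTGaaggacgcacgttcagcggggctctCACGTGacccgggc
GDF15: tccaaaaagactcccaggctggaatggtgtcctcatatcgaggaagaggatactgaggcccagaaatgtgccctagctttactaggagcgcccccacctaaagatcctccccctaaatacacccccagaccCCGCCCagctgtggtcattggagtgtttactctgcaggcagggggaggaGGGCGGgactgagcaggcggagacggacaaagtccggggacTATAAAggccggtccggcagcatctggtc

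Motifs were searched on both strands, and none of the matches shown overlap. The BAX window holds 4 E-boxes, the sequence read by MYC, USF and related factors, beginning 138, 93, 45 and 14 bases before the start. At least 1 E-box was found in 6.34% of 35097 windows of the same length, and at least 4 in 0.0142%. The E-box was added to the search after the BAX window had been read. BAX also holds 1 GC box, a motif found in 42.6% of windows, and no TATA box. GDF15 holds 2 GC boxes, as many or more than which occur in 24.3% of windows, and a TATA box beginning 29 bases before the start, a motif found in 10.7%. In neither window did the letters of a p53 half-site, the amino acid response element core TGATGNAA read by ATF4 and CHOP, or the cAMP response element TGACGTCA occur, motifs found in 5.58%, 3.15% and 1.65% of windows. Sequence outside these windows was not searched, so the absence of these letters does not show that either gene lacks a p53 site or the other elements. These matches describe the letters of the reference and no binding was measured.

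BAX stood higher in every mutant line than in WT, while GDF15 stood lower in every mutant line, and neither difference passed the threshold over all genes tested. On the mean of the 4 mutant lines BAX lay 1.67-fold above WT and GDF15 lay 2.39-fold below it. The BAX difference was of similar size within both replicates on the mean of the 4 lines, whereas most of the GDF15 difference lay in the replicate 2 arrays. Values are log2 expression as deposited. The log base was read from the range of the values, so the folds rest on that reading.

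**Figure D1:**
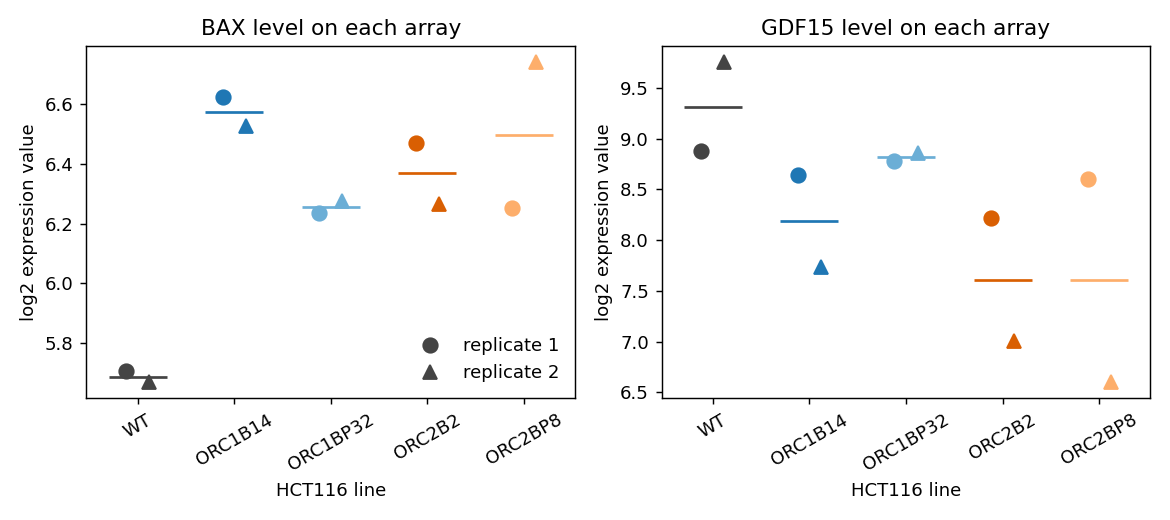
Log2 expression value (vertical axes, not starting at 0) of BAX and GDF15 on each of the 10 arrays, by line, with circles for replicate 1, triangles for replicate 2 and bars for the mean of 2 arrays. All 8 mutant arrays lie above both WT arrays for BAX and below both for GDF15, and the 2 GDF15 arrays of ORC2BP8 lie at 8.61 and 6.60.

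For BAX, the WT arrays held 5.71 in replicate 1 and 5.67 in replicate 2, and the level was 5.69 ± 0.0269 (SD, n = 2). ORC1B14 held 6.62 and 6.53, ORC1BP32 held 6.24 and 6.28, ORC2B2 held 6.47 and 6.27, and ORC2BP8 held 6.25 and 6.74, in the same order of replicates. The 8 mutant arrays, from 6.24 to 6.74, thus all lay above both WT arrays, without overlap. Ordered by level, WT was lowest, followed by ORC1BP32 at 6.26 ± 0.0275, ORC2B2 at 6.37 ± 0.14, ORC2BP8 at 6.50 ± 0.35 and ORC1B14 at 6.58 ± 0.0697 (SD, n = 2 each). Neighbouring mutant lines in this order had overlapping arrays, so the order among the mutant lines is not separated from the replicate spread.

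Against WT, BAX differed by 0.89 in ORC1B14 (SE 0.21, limma adjusted p = 0.0886 over 10797 genes). In ORC2BP8 the difference was 0.81, in ORC2B2 0.68 and in ORC1BP32 0.57, with the same SE and limma adjusted p = 0.106, 0.200 and 0.403. The 4 comparisons share the WT arrays and are therefore not independent of each other. For the mean of the 4 mutant lines the difference was 0.74 (SE 0.16, 95% interval 0.37 to 1.10 before adjustment, limma adjusted p = 0.0589), just outside the threshold of 0.05. Of all genes tested, 1.02% were called in this comparison, and 17.3%, with BAX and GDF15 among them, reached an unadjusted p under 0.05. Arrays that did not overlap, with all mutant arrays higher, were found for 7.96% of genes. BAX was thus 1 of many genes with this pattern, and by size its difference ranked 386 of 10797. Leaving out 1 array, the mean difference ranged from 0.68 without ORC2BP8 replicate 2 to 0.80 without ORC2BP8 replicate 1. Only without ORC2BP8 replicate 1, which left 1 array in that line, was the mean difference called. After quantile normalization it was 0.80 and was called (limma adjusted p = 0.0418). Under 6 of the 8 alternatives that kept all arrays it was not called (highest limma adjusted p 0.131).

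BAX lay above WT within both replicates in each line, with the widest gap between replicates in ORC2BP8, where replicate 2 lay 0.49 above replicate 1. Each mutant array minus the WT array of the same replicate number gave 0.92 in replicate 1 and 0.86 in replicate 2 for ORC1B14, 0.53 and 0.61 for ORC1BP32, 0.77 and 0.60 for ORC2B2, and 0.55 and 1.07 for ORC2BP8. Averaged over the 4 lines this was 0.69 within replicate 1 and 0.78 within replicate 2. The residual spread of BAX (SD 0.17 within lines) was below the median over all genes tested (0.22).

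Between mutant lines no BAX difference was called. The mean of the ORC1 lines lay at -0.02 against the mean of the ORC2 lines (SE 0.15, 95% interval -0.34 to 0.31, limma adjusted p = 0.992), in a comparison that called 0.0463% of genes. This value reached 0.10 without ORC2BP8 replicate 2 and -0.14 without ORC2BP8 replicate 1, so its sign is not set. ORC1B14 lay 0.32 above ORC1BP32 (SE 0.21, 95% interval -0.14 to 0.78, limma adjusted p = 0.999), with non-overlapping arrays, which 17.2% of genes showed in this direction; 0.0185% of genes were called there. ORC2B2 lay at -0.13 against ORC2BP8 (SE 0.21, 95% interval -0.59 to 0.33, limma adjusted p = 1, with 0.222% of genes called), and at 0.12 without ORC2BP8 replicate 2. The intervals are given without adjustment for the number of genes.

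**Figure D2:**
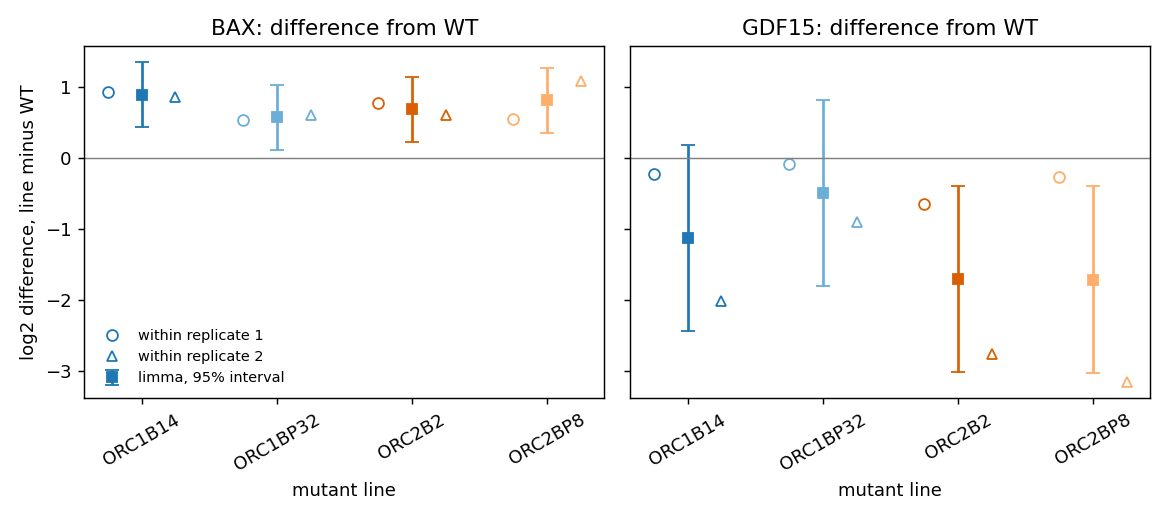
Log2 difference from WT (vertical axis) of BAX and GDF15 in each mutant line, with squares and bars for the limma estimate and its 95% interval, circles for the difference within replicate 1 and triangles for that within replicate 2. The BAX points of both replicates lie between 0.53 and 1.07, while those of GDF15 lie between -0.65 and -0.09 within replicate 1 and between -3.16 and -0.90 within replicate 2.

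For GDF15, the WT arrays held 8.87 in replicate 1 and 9.75 in replicate 2. ORC1B14 held 8.64 and 7.74, ORC1BP32 held 8.78 and 8.86, ORC2B2 held 8.22 and 7.002, and ORC2BP8 held 8.61 and 6.60, in the same order. All 8 mutant arrays lay below both WT arrays, but the highest of them, ORC1BP32 replicate 2 at 8.86, was next to WT replicate 1 at 8.87. Ordered by level, WT at 9.31 ± 0.62 was highest, followed by ORC1BP32 at 8.82 ± 0.0539, ORC1B14 at 8.19 ± 0.64, ORC2B2 at 7.61 ± 0.86 and ORC2BP8 at 7.60 ± 1.42 (SD, n = 2 each). The arrays of ORC1B14 and ORC2B2 overlapped, as did those of both ORC2 lines, and the arrays of the first 3 lines in this order did not. With 2 arrays a line this is common: 17.2% of genes had ORC1B14 above ORC1BP32 without overlap, the direction opposite to GDF15. Neither ORC1BP32 against WT nor ORC1B14 against ORC1BP32 was called for GDF15 (limma adjusted p = 0.844 and 0.999).

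Against WT, GDF15 differed by -1.71 in ORC2BP8 and -1.70 in ORC2B2, by -1.13 in ORC1B14 and by -0.49 in ORC1BP32 (SE 0.59 each, limma adjusted p = 0.219, 0.280, 0.360 and 0.844). Expressed as folds, GDF15 lay 3.28-fold, 3.26-fold, 2.18-fold and 1.41-fold below WT in the same order. The share of genes called was 0.935% in ORC2BP8, 0.333% in ORC2B2, 0.583% in ORC1B14 and 0.0185% in ORC1BP32, and neither BAX nor GDF15 was among them. For the mean of the 4 mutant lines the difference was -1.26 (SE 0.47, 95% interval -2.30 to -0.22 before adjustment, limma adjusted p = 0.203). By size this ranked 62 of 10797, ahead of BAX, while its p was larger because of its wider spread. All mutant arrays lay below WT without overlap for 6.93% of genes. Single arrays moved these values: ORC2BP8 stood at -2.71 without its replicate 1, the one omission that gave a call (limma adjusted p = 0.0474), and at -0.71 without its replicate 2. ORC2B2 stood at -2.31 and -1.10, and ORC1B14 at -1.58 and -0.67, without their own replicates 1 and 2. ORC1B14 also stood at -0.69 without WT replicate 2. Without WT replicate 1 or 2, ORC1BP32 stood at -0.94 and -0.05 and the mean of the 4 lines at -1.70 and -0.82.

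The spread between the replicates of GDF15 was among the largest on the array. Its residual SD within lines was 0.84, larger than that of 99.7% of genes tested. From replicate 1 to replicate 2 it differed by 0.88 in WT and 0.08 in ORC1BP32, but by -0.90 in ORC1B14, -1.22 in ORC2B2 and -2.01 in ORC2BP8. Within replicate 1 ORC1B14 stood at -0.23 from WT, ORC1BP32 at -0.09, ORC2B2 at -0.65 and ORC2BP8 at -0.27, with a mean of -0.31. Within replicate 2 they were -2.02, -0.90, -2.75 and -3.16 in the same order, with a mean of -2.21. The direction was thus the same in both replicates and the size was not. Array medians also differed by replicate number, at 3.94 to 3.96 in replicate 1 and 3.87 to 3.89 in replicate 2. With each array centred on its median, GDF15 stood at -1.256 on the mean of the 4 lines, beside -1.259 as deposited. In ORC2BP8 it stood at -1.706 after centring, beside -1.712. Each line has 1 array of each replicate number, so a shift shared by the arrays of a replicate number cancels in these differences. They therefore do not measure the spread between replicates. The cause of the spread between replicates was not tested.

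Between mutant lines no GDF15 difference was called either. The mean of the ORC1 lines lay 0.90 above the mean of the ORC2 lines (SE 0.42, 95% interval -0.03 to 1.82, limma adjusted p = 0.731). Their arrays overlapped: 3 of the 4 ORC1 arrays lay above all ORC2 arrays, and ORC1B14 replicate 2 at 7.74 did not. The difference was 0.40 without ORC2BP8 replicate 2 and 1.40 without ORC2BP8 replicate 1. ORC1B14 lay at -0.63 against ORC1BP32 (SE 0.59, 95% interval -1.94 to 0.68, limma adjusted p = 0.999), and ORC2B2 at 0.01 against ORC2BP8 (SE 0.59, 95% interval -1.30 to 1.32, limma adjusted p = 1). Intervals this wide do not show that the paired lines had a similar level.

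Over the 10 arrays the values of BAX and GDF15 correlated at r = -0.68, and over the 8 mutant arrays alone at r = -0.47. These are descriptions: the arrays fall into 5 lines, and WT sits apart at opposite ends for both genes.

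Among the other p53 targets tested, 2 were called on the mean of the 4 mutant lines. Of 69 listed targets other than BAX and GDF15, 45 were named on the array and 42 were tested, while CDKN1A, MDM2, FAS and TNFRSF10B were not named and are not analysed here. On the mean of the 4 mutant lines 2 of the 42 rose and 0 fell, where 0.417% of all genes tested rose and 0.602% fell. The list had a median difference of 0.09, against 0.04 over all genes tested, and 25 of 42 lay above 0, against 55.4% of all genes. All 8 mutant arrays lay above both WT arrays for 6 of the 42 targets and below both for 0, beside 7.96% and 6.93% of all genes. This list, like those below, was chosen with earlier results of these data known, so its counts and median are not independent evidence. The 2 that rose were THBS1, the secreted matrix glycoprotein thrombospondin 1, and PLK2, a polo-like kinase of centriole duplication.

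THBS1 lay at 6.75 and 7.40 in WT and between 7.90 and 10.13 (median 8.54) in the mutant arrays, and rose by 1.71 on the mean of the 4 lines (SE 0.32, limma adjusted p = 0.0366). PLK2 lay at 7.26 and 7.63 in WT and between 8.02 and 9.97 (median 9.13) in the mutant arrays, and rose by 1.57 (SE 0.24, limma adjusted p = 0.0175). Both were higher than WT on 8 of 8 mutant arrays. Both lost their calls without either WT array, and THBS1 also without either ORC1BP32 array or ORC2BP8 replicate 2 (highest limma adjusted p 0.312 for THBS1 and 0.183 for PLK2). Single lines gave 2 targets that rose for ORC1B14 (THBS1 and PLK2), 0 for ORC1BP32, 1 for ORC2B2 (PLK2) and 1 for ORC2BP8 (PLK2), and 0 that fell. Of all genes 0.185%, 0%, 0.120% and 0.250% rose and 0.398%, 0.0185%, 0.213% and 0.685% fell, in the same order of lines. Calls of list genes in single lines were not refitted with arrays left out.

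Next below PLK2 came CDIP1, a pro-apoptotic p53 target, at 0.57 (SE 0.16, limma adjusted p = 0.0992) and higher on 8 of 8 mutant arrays. SESN2, a stress-induced sestrin that p53 and ATF4 both induce, had the lowest value of the list. It held 7.46 and 8.02 in WT and 6.32 to 7.50 (median 6.87) in the mutant arrays, a difference of -0.89 (SE 0.20, limma adjusted p = 0.0596), and lay below both WT arrays on 7 of 8. KITLG, the KIT ligand, lay at -0.54 and RPS27L, a ribosomal protein homologue, at -0.40 (limma adjusted p = 0.304 and 0.285). BBC3 and PMAIP1, the BH3-only killer proteins PUMA and NOXA, which the list of the BCL2 family also holds, lay at -0.07 and -0.11 (SE 0.28 and 0.27, limma adjusted p = 0.929 and 0.874), and for both the mutant arrays overlapped WT. The other targets were spread between these, and GDF15 lay below all 42 and BAX below THBS1 and PLK2 alone.

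**Figure D3:**
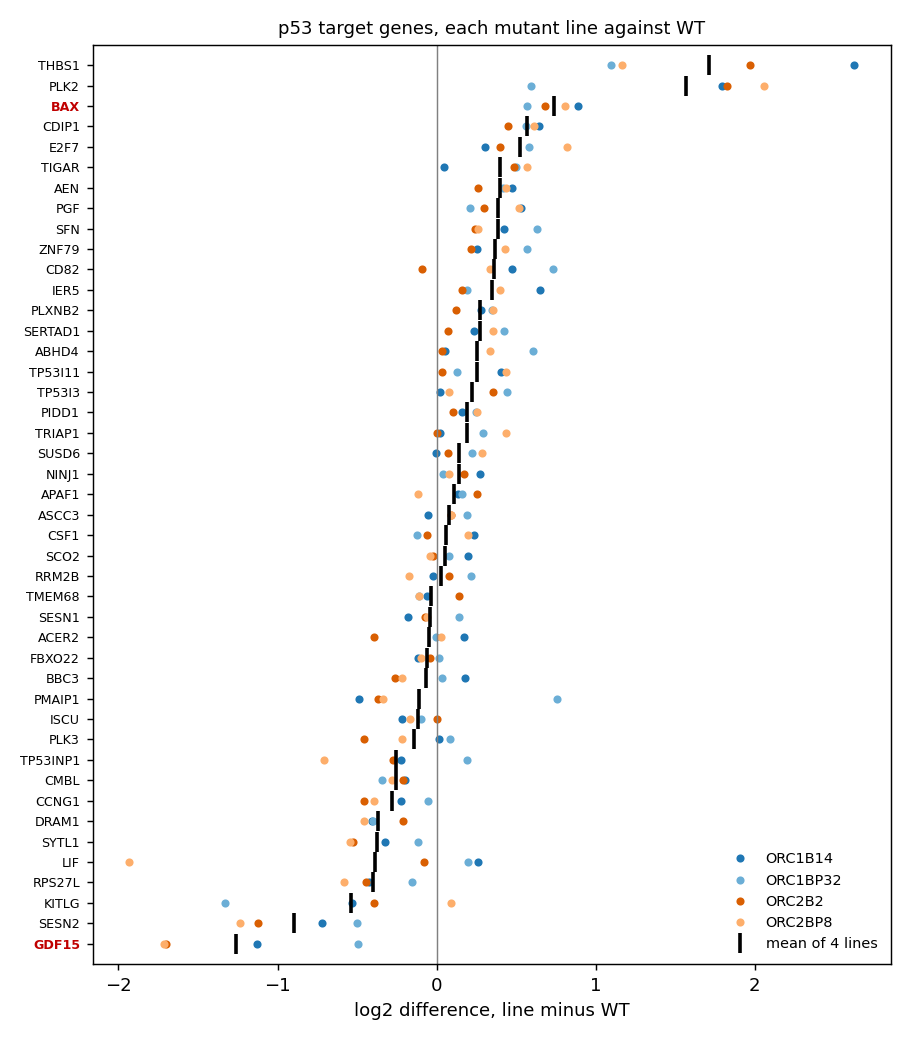
Log2 difference from WT (horizontal axis) of the 42 tested p53 targets with BAX and GDF15 (red labels), sorted by the mean of the 4 mutant lines (black bars), with a coloured point for each line. GDF15 is lowest at -1.26, BAX at 0.74 lies below THBS1 and PLK2 alone, and the other 40 targets have means between -0.89 and 0.57.

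Of 25 listed genes of p53 regulation, 17 were named and tested, and 0 were called in this comparison by limma (4 at an unadjusted p under 0.05), beside 1.02% and 17.3% of all genes. The median was -0.10, and 7 of 17 lay above 0. The lowest was MDM4, which binds and inhibits p53: it held 9.56 and 9.28 in WT and 8.29 to 8.93 (median 8.78) in the mutant arrays, a difference of -0.71 (SE 0.16, limma adjusted p = 0.0577), and lay lower on 8 of 8. HIPK2, another listed regulator, lay at -0.55 (SE 0.14, limma adjusted p = 0.0824) and also lower on 8 of 8. The highest was TP73, a p53 family member, at 0.71 (SE 0.18, limma adjusted p = 0.0767). All 8 mutant arrays lay above both WT arrays for 2 of the 17 and below both for 2, beside 7.96% and 6.93% of all genes.

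BAX acts together with the other members of the BCL2 family, of which 20 were listed, 18 named and 15 tested. On the mean of the 4 mutant lines 1 rose and 0 fell, 10 of 15 lay above 0, and the median was 0.18, beside 0.417% of all genes that rose, 0.602% that fell, 55.4% above 0 and a median of 0.04. The gene that rose was BCL2L12, a BCL2-like protein. It held 6.52 and 6.74 in WT and 7.36 to 7.98 (median 7.59) in the mutant arrays and rose by 0.96 (SE 0.19, limma adjusted p = 0.0438). That call was lost without any 1 of 8 of the 10 arrays (all but ORC1B14 replicate 2 and ORC2BP8 replicate 1), after centring and without the filter on dim probe sets (highest limma adjusted p 0.322 without 1 array).

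BAK1, the pore-forming protein closest to BAX in function, held 6.13 and 6.27 in WT and 6.58 to 7.43 (median 6.86) in the mutant arrays. Its difference was 0.68 (SE 0.19, limma adjusted p = 0.0982), with 8 of 8 mutant arrays above WT as for BAX. Of the 15 family genes tested, 4 had all mutant arrays above both WT arrays and 1 had all below, beside 7.96% and 6.93% of all genes. The BH3-only proteins BID, BIK and BAD lay at 0.45, 0.46 and 0.37, and BOK, a further pore former, at 0.41 (limma adjusted p = 0.198, 0.363, 0.350 and 0.281). Among the pro-survival members, MCL1 lay at -0.40 (SE 0.12, limma adjusted p = 0.133) and below WT on 8 of 8 arrays. BCL2L1, which encodes BCL-XL, lay at -0.09 and BCL2 at -0.19, with mutant arrays on both sides of WT (limma adjusted p = 0.847 and 0.744). In the caspase pathway that follows BAX, 10 of 22 listed genes were named and tested, with 0 called by limma (1 at an unadjusted p under 0.05), beside 1.02% and 17.3% of all genes, and a median of 0.11. The highest was BIRC5, which encodes the inhibitor of apoptosis survivin and is a mitotic gene, at 0.76 (limma adjusted p = 0.0589). APAF1, the scaffold of the apoptosome, lay at 0.11 (adjusted p = 0.853).

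**Figure D4:**
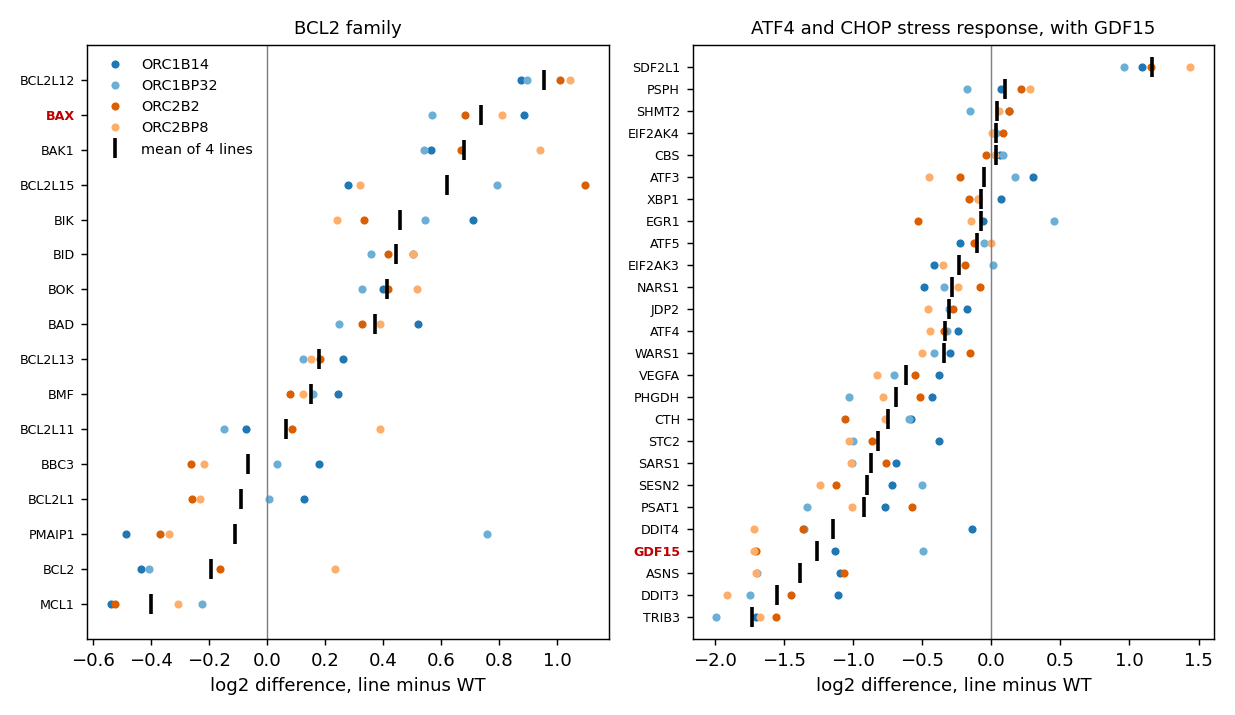
Log2 difference from WT (horizontal axes) of 15 BCL2 family genes with BAX (left) and 25 genes of the ATF4 and CHOP stress response with GDF15 (right), sorted by the mean of the 4 mutant lines (black bars), with a coloured point for each line. BAX lies next to BCL2L12 and BAK1 at the high end, and GDF15 lies between ASNS and DDIT4 near the low end.

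GDF15 was set beside the integrated stress response, of which 44 genes were listed, 27 named and 25 tested. On the mean of the 4 mutant lines 5 of the 25 fell and 1 rose, beside 0.602% and 0.417% of all genes tested, and the list's median was -0.34 against 0.04. This list was chosen with the fall of TRIB3 in these lines already known, so its direction is not independent evidence. TRIB3, a pseudokinase induced by CHOP, held 8.28 and 8.40 in WT and 6.32 to 7.18 in the mutant arrays and fell by 1.73 (SE 0.20, limma adjusted p = 0.0107). DDIT3, which encodes CHOP, held 6.56 and 6.76 in WT and 4.45 to 5.67 in the mutant arrays and fell by 1.55 (SE 0.20, limma adjusted p = 0.0107). ASNS, asparagine synthetase, fell by 1.39, DDIT4, an inhibitor of mTORC1 signalling, by 1.14, and SARS1, seryl-tRNA synthetase, by 0.87 (limma adjusted p = 0.0207, 0.0399 and 0.0264).

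SDF2L1, a chaperone cofactor of the endoplasmic reticulum, was the gene that rose, by 1.16 (SE 0.15, limma adjusted p = 0.0107). Each of these 6 calls was lost without WT replicate 2, all but that of TRIB3 also without WT replicate 1, and those of ASNS, DDIT4 and SARS1 without ORC1BP32 replicate 1. DDIT4 and SARS1 lost theirs also without ORC1BP32 replicate 2 or ORC2B2 replicate 2, and DDIT4 without ORC2BP8 replicate 2. The call of SARS1 was also lost after centring, and that of DDIT4 without the filter on dim probe sets. Single lines gave 1 gene that fell for ORC1B14 and for ORC1BP32 (TRIB3), and 2 for ORC2B2 (TRIB3 and DDIT3). ORC2BP8 gave 5 (TRIB3, DDIT3, ASNS, DDIT4 and SARS1), and SDF2L1 rose in each line but ORC1BP32. Beside these, 0.398%, 0.0185%, 0.213% and 0.685% of all genes fell, with the lines taken in that order. The shares that rose were 0.185%, 0%, 0.120% and 0.250%. These single-line calls were not refitted with arrays left out. ATF4 lay at -0.34 (limma adjusted p = 0.296), ATF3, a stress-induced transcription factor, at -0.05 and EGR1 at -0.07 (adjusted p = 0.936 and 0.933), and PPP1R15A was not named and is not analysed here. In replicate 1 the mutant arrays of TRIB3, DDIT3 and ASNS lay clear of both WT arrays. Those of GDF15 also lay below both, at -0.65 to -0.09 from WT replicate 1. TRIB3, DDIT3 and ASNS were picked among genes called in these data, and a call favours a small spread between replicates. Their contrast with GDF15 is therefore partly set by the choice.

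In the TGF-beta superfamily, with the receptors and processing enzymes of GDF15, 39 genes were listed, 31 named and 21 tested, and 0 were called by limma on the mean of the 4 mutant lines (3 at an unadjusted p under 0.05), beside 1.02% and 17.3% of all genes. GFRAL, the receptor of GDF15, did not pass the filter on dim probe sets. Its partner RET held 5.57 and 5.92 in WT and 4.90 to 6.24 in the mutant arrays, a difference of 0.12 (SE 0.27, limma adjusted p = 0.862). FURIN, a protease that cleaves precursors of this family, lay at -0.35 (SE 0.21, limma adjusted p = 0.431). The highest was BMP4, a bone morphogenetic protein, at 0.74 (SE 0.21, limma adjusted p = 0.108).

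The genes most like each member over the 10 arrays were of different kinds. For BAX they were CDCA8, a subunit of the chromosomal passenger complex of mitosis (r = 0.97), E2F1, a transcription factor of S-phase entry (0.95), CCNF, the cell-cycle F-box protein cyclin F (0.95), SUMO3, a ubiquitin-like modifier (0.95), and BLTP2 (0.94). Over the 8 mutant arrays alone, a choice made after seeing the data, they were 0.99, 0.92, 0.87, 0.79 and 0.98. CDCA8 then had the highest r of all genes, while 1.10% of genes had a higher r than SUMO3. The 8 arrays are among the 10 on which these genes were picked, so high values there are partly set by the choice. CDCA8 held 8.17 and 8.42 in WT and 8.79 to 9.17 in the mutant arrays, with its highest value in ORC2BP8 replicate 2, as for BAX. Of these genes E2F1 was called on the mean of the 4 lines, with a rise of 0.91 (SE 0.17, limma adjusted p = 0.0366), a call lost without any 1 of 8 of the 10 arrays (all but ORC1B14 replicate 2 and ORC2BP8 replicate 1; highest limma adjusted p 0.322) and after centring. CDCA8 lay at 0.66 and CCNF at 0.79 (limma adjusted p = 0.0542 and 0.0506). In all, 42 genes correlated with BAX at r over 0.9.

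For GDF15 the 5 most alike were MXD1, a MYC-antagonist partner of MAX (r = 0.96), TRIQK (0.95), TNXB, the matrix protein tenascin X (0.93), KIAA0319L (0.93) and CREBRF, a regulator of the stress factor CREB3 (0.92), and 9 genes passed 0.9. Over the 8 mutant arrays they were 0.95, 0.95, 0.92, 0.94 and 0.88. MXD1 held 6.25 in WT replicate 1 and 6.64 in WT replicate 2, and 5.02 to 6.44 (median 5.83) in the mutant arrays, with its lowest value in ORC2BP8 replicate 2, as for GDF15. None of the 5 (0) was called on the mean of the 4 lines by limma (2, MXD1 and TRIQK, had an unadjusted p under 0.05). The correlations are over arrays that share lines and the WT arrays, with genes picked from 10797 for their likeness, and carry no test.

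**Figure D5:**
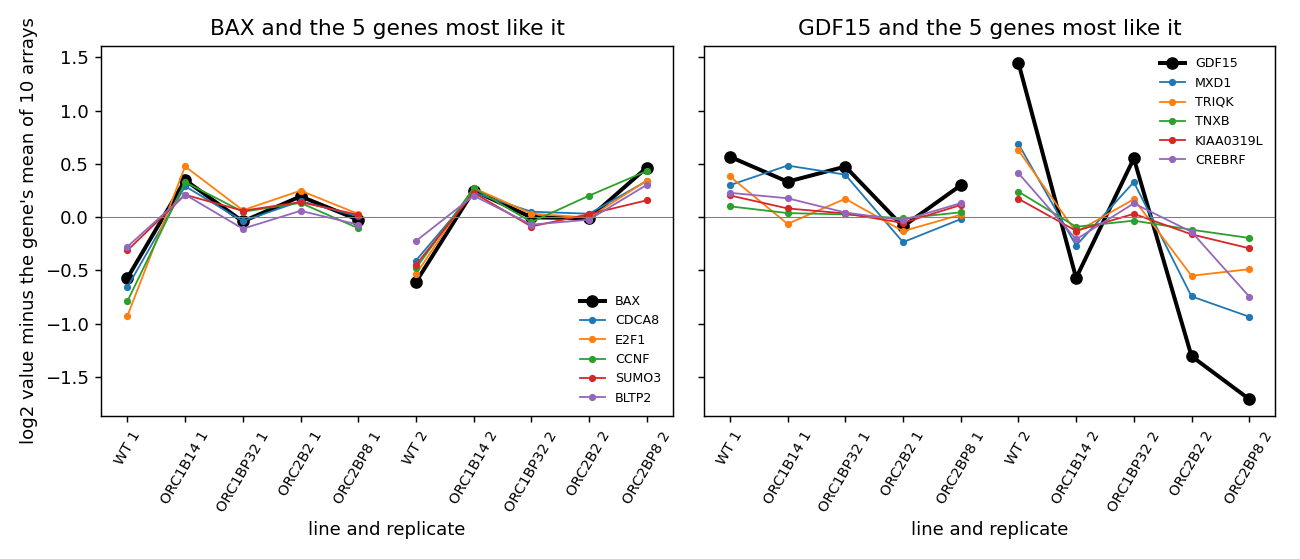
Log2 value minus the gene's own mean over the 10 arrays (vertical axis) for BAX and for GDF15 (black) with the 5 genes most like each (colours), by line and replicate; lines join the arrays of a replicate for reading and imply no order. BAX and its 5 genes are low on both WT arrays and alike elsewhere, while GDF15 and its 5 genes are each lowest in the replicate 2 array of an ORC2 line.

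The values of both genes were also set beside their neighbours on chromosome 19, the 5 nearest tested genes on each side in the RefSeq order. On the mean of the 4 mutant lines 0 of the 10 neighbours of BAX were called by limma and 2 had an unadjusted p under 0.05, beside 1.02% and 17.3% of all genes, their median was 0.13, and they ranged from -0.16 for DHDH to 0.56 for SNAR-G2, so BAX at 0.74 lay above each of them. For GDF15 0 of 10 neighbours were called by limma and 2 had an unadjusted p under 0.05, beside the same shares, with a median of 0.12 and a range from -0.29 for MIR3189 to 0.46 for MIR3188, and GDF15 at -1.26 lay below each. MIR3189 is a microRNA gene that lies within GDF15, and it was the only gene that overlapped it in RefSeq, while 0 overlapped BAX. Its probe set lay between 2.78 and 5.33 on the mutant arrays, some of them below the array medians.

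The annotation pairs the BAX probe set with a non-coding BAX transcript, and RefSeq lists 10 BAX transcripts, so the value may combine isoforms. The labelled cell type was checked against markers. Of 9 named colorectal epithelial markers, 8 lay above the array median on all 10 arrays, and LGR5 on 0. Among the 8, EPCAM held 9.75 to 10.46 and VIL1 held 3.93 to 4.44, where the array medians were 3.87 to 3.96. The blood marker CD14, the fibroblast markers DCN and LUM and the endothelial markers PECAM1 and KDR lay below the median on all 10. The endothelial marker VWF lay above it on 1 array, and the fibroblast marker THY1 on all 10, at 4.16 to 4.82. Of these markers KRT20, a keratin of differentiated colonocytes, was called in 1 line, where it rose by 1.99 (ORC2B2, limma adjusted p = 0.0322). ORC1 and ORC2 were not named on the array, so the labels could not be checked against the mutated genes.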

How the data were processed

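Per the labels' protocols, total RNA was extracted with Trizol and biotin-labelled by the manufacturer's protocol. The authors deposited 1 log2 value per probe set and array (53617 probe sets, 10 arrays); Affymetrix Expression Console was used, per the submitters' processing notes. Which normalization, annotation or build was chosen is not given in the sources used here. The log2 reading rests on the range of the values. Arrays correlated at 0.979 to 0.984 within and 0.968 to 0.989 between lines, and 0 pairs were identical; arrays give no read depth, and their number limits the precision.

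Symbols came from the platform annotation: 16098 probe sets had 1 symbol, 0 several and 37519 none. Checking symbols against RefSeq updated 0. Probe sets at or above the array median on at least 2 arrays were kept, the one with the highest mean per gene (10797 genes). Both members passed on all 10 arrays. In R 4.3.3, limma 3.58.1 (lmFit on 5 line means, eBayes with intensity trend, 5 residual and 5.83 prior degrees of freedom) tested 8 comparisons, two-sided, with Benjamini-Hochberg adjustment over all genes and a threshold of 0.05. The fit was tested on simulated data.

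The members, gene lists and rules were chosen with earlier results of these data known. Besides BAX and GDF15 the text names a set of core genes per list, each list member called in a comparison, the 3 highest and 3 lowest p53 targets, the 5 genes most correlated with each member and the 5 tested neighbours on each side. Alternatives were other scalings, filters, probe sets, variance models, the replicate block and each array left out. Promoters came from RefSeq (GRCh38.p14).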

Additional observations from a re-analysis of the deposited data

How the results depend on the processing

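The direction of BAX and of GDF15 against WT held in every line and on their mean under every alternative run. The labels do not say that same-numbered arrays share a culture or day, and pairing from the data alone was taken to need every correlation over 0.1. Deviations of same-numbered arrays correlated at 0.0812 to 0.568 over 10 pairs of lines, 9 of them over 0.1, so the fit without the block was kept. With the replicate block BAX was called in ORC1B14 (0.89, limma adjusted p = 0.0348), ORC2BP8 (0.81, 0.0465) and the mean of 4 lines (0.74, 0.0229). Quantile normalization also called that mean (0.80, 0.0418). So did the omission of ORC2BP8 replicate 1, which left 1 array in that line. GDF15 was called by no alternative that kept all arrays.

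Leaving out 1 array, the BAX mean ranged from 0.68 to 0.80, BAX in ORC1 minus ORC2 lines from -0.14 to 0.10 (quantile 0.016) and in ORC2B2 minus ORC2BP8 from -0.37 to 0.12. GDF15 ranged from -2.71 to -0.71 in ORC2BP8, from -1.70 to -0.82 on the mean of 4 lines, and from -0.99 to 1.01 in ORC2B2 minus ORC2BP8 (quantile -0.0065). The cause was not tested.

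Counts of genes called moved most. For ORC1B14, 63 became 32 (centred), 27 (no filter), 3 (all probe sets), 496 (replicate block) and 1 to 77 (1 array left out). For ORC1BP32, 2 became 0 (quantile), 0 (centred), 0 (no filter), 4 (all probe sets), 57 (block) and 0 to 5. For ORC2B2, 36 became 22 (no filter), 1 (all probe sets), 251 (block) and 7 to 42. For ORC2BP8, 101 became 58 (centred), 37 (all probe sets), 402 (block) and 14 to 156. For the mean of 4 lines, 110 (45 higher, 65 lower) became 204 (quantile; 103 higher, 101 lower), 63 (centred; 17 higher, 46 lower), 4 (all probe sets), 709 (block) and 2 to 267. ORC1 minus ORC2 lines went from 5 to 3 (filter on all arrays), 2 (all probe sets), 58 (block) and 0 to 10, ORC1B14 minus ORC1BP32 from 2 to 0 (filter on all arrays), 11 (block) and 0 to 5, and ORC2B2 minus ORC2BP8 from 24 to 15 (filter on all arrays), 0 (all probe sets), 94 (block) and 2 to 23.

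List medians on the mean of 4 lines moved to 0.13 (quantile; 0.066 to 0.17 with 1 array left out) for p53 targets and 0.15 (quantile; 0.0078 to 0.17) for caspases. For the TGF-beta list they moved to 0.048 (quantile), -0.0076 (no filter), 0.039 (filter on all arrays), 0.039 (all probe sets) and 0.059 (mean over probe sets), with -0.028 to 0.061. For the stress response they moved to -0.30 (quantile) and -0.30 (no filter), with -0.53 to -0.26. For p53 regulators and the BCL2 family they ranged from -0.14 to -0.015 and from 0.16 to 0.26. Including all probe sets ended the calls of the 10 list and likeness genes named as called on that mean.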
